A study of Mus musculus with 3 samples.

Results

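The Confetti reporter transcripts are the 4 rows EYFP, tdimer2, MbmCerulean and hrGFPIINLS of a gene table with 31058 rows, and they were chosen by name, without regard to their values. Single cells from mouse kidney glomeruli were sequenced from the 3′ end in droplets, each RNA molecule being counted once by its molecular identifier (UMI), in 1 library each from a female ERaKO mouse (Pax2.rtTA;TetO.Cre;R26.Confetti;ERalphaKO), a male mouse and a female mouse (both Pax2.rtTA;TetO.Cre;R26.Confetti). All 3 mice were healthy, of the C57Bl/6 strain, and carried the driver, the Cre transgene and the reporter, so none is a control without recombination. All 3 also had doxycycline at 20 days of age and were followed to 90 days. ERalphaKO, written RPC-ERαKO in its title and female ERaKO here, is by its name a knockout of the oestrogen receptor Esr1, and the labels say neither which part of Esr1 was deleted nor how many copies of the reporter a mouse carried. With 1 mouse and 1 library per group (n = 1), differences between libraries have no test, and every interval covers counting error only.

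In this system the Pax2 promoter drives the transactivator rtTA, which with doxycycline switches on Cre. Cre then removes a stop cassette from the Confetti construct in the Rosa26 locus and leaves one of 4 reporters behind a ubiquitous promoter, by chance and for all daughters of the cell. The colours are a nuclear green protein (hrGFPIINLS, from Renilla), a cytoplasmic yellow protein (EYFP), a cytoplasmic red tandem dimer (tdimer2, from a coral protein) and a cyan protein at the membrane (MbmCerulean). EYFP and Cerulean are both variants of the jellyfish green protein with nearly the same sequence, so reads of one may have been counted for the other, and the split between these rows is uncertain. Pax2 is a transcription factor of the developing nephron and ureteric bud that stays on in collecting duct cells and in part of the parietal cells that line Bowman's capsule.

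The 4 reporters together had 1583, 1965 and 1636 UMIs in the female ERaKO, male and female libraries, among 3986, 4244 and 3555 barcodes. Of these barcodes 2471, 3221 and 2847 cells were kept, with medians of 8039, 7325 and 8857 UMIs. hrGFPIINLS was the most abundant reporter in each library, with 848, 1034 and 681 UMIs over all barcodes. EYFP was the least abundant, with 224, 207 and 185 UMIs. Another transgene row, EGFP, had 0 UMIs in every library. Pairs of libraries shared 4 to 8 barcodes. Esr1, the targeted gene, had 3 UMIs in the podocytes of each library, and its smooth muscle and renin cell level was 14.4 CPM (UMIs of a row per 1000000 UMIs of the class) in the female ERaKO library, 21.9 CPM in the male library and 19.9 CPM in the female library. A 3′ tag need not lie in the deleted part, so these values check neither the deletion nor the labels.

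Together, collecting duct cells and parietal epithelial cells held most of the reporter UMIs. Of 1182, 1594 and 1361 reporter UMIs in the kept cells of the female ERaKO, male and female libraries, parietal cells held 530, 464 and 246, intercalated cells 102, 364 and 393 and principal cells 166, 192 and 148. Podocytes, with many more cells, held 126, 290 and 428, the most of any class in the female library. A cell is called colour-positive here when it had at least 1 UMI of any of the 4 reporters. Of principal cells, the water-reabsorbing cells of the collecting duct (Aqp2, Fxyd4, Avpr2), 35 of 39 in the female ERaKO library, 37 of 53 in the male library and 23 of 28 in the female library were colour-positive, or 89.7%, 69.8% and 82.1%. Endothelial cells, which lie outside the Pax2 lineage, gave the level in cells that should lack recombination: 5.06% of 474 cells in the female ERaKO library, 7.92% of 770 in the male library and 5.09% of 688 in the female library. The intervals of principal and endothelial cells lie far apart in each library.

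Depth differed between these classes. The median principal cell had 14311, 15503 and 20972 UMIs in the female ERaKO, male and female libraries, and the median endothelial cell 8139.5, 5999.5 and 7551 UMIs. The share was therefore computed again with each cell thinned to 4000 UMIs, a depth that every kept cell reached. The thinned share of principal cells was 48.7%, 45.3% and 39.3%, and that of endothelial cells 1.69%, 3.25% and 1.74%. Principal cells thus stayed above endothelial cells in 3 of 3 libraries at equal depth. The mean difference in the unthinned share was 74.5 percentage points (SD 11.6, n = 3 libraries), with an exact two-sided sign-flip p = 0.25, the smallest that 3 pairs can give.

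**Figure D1:**
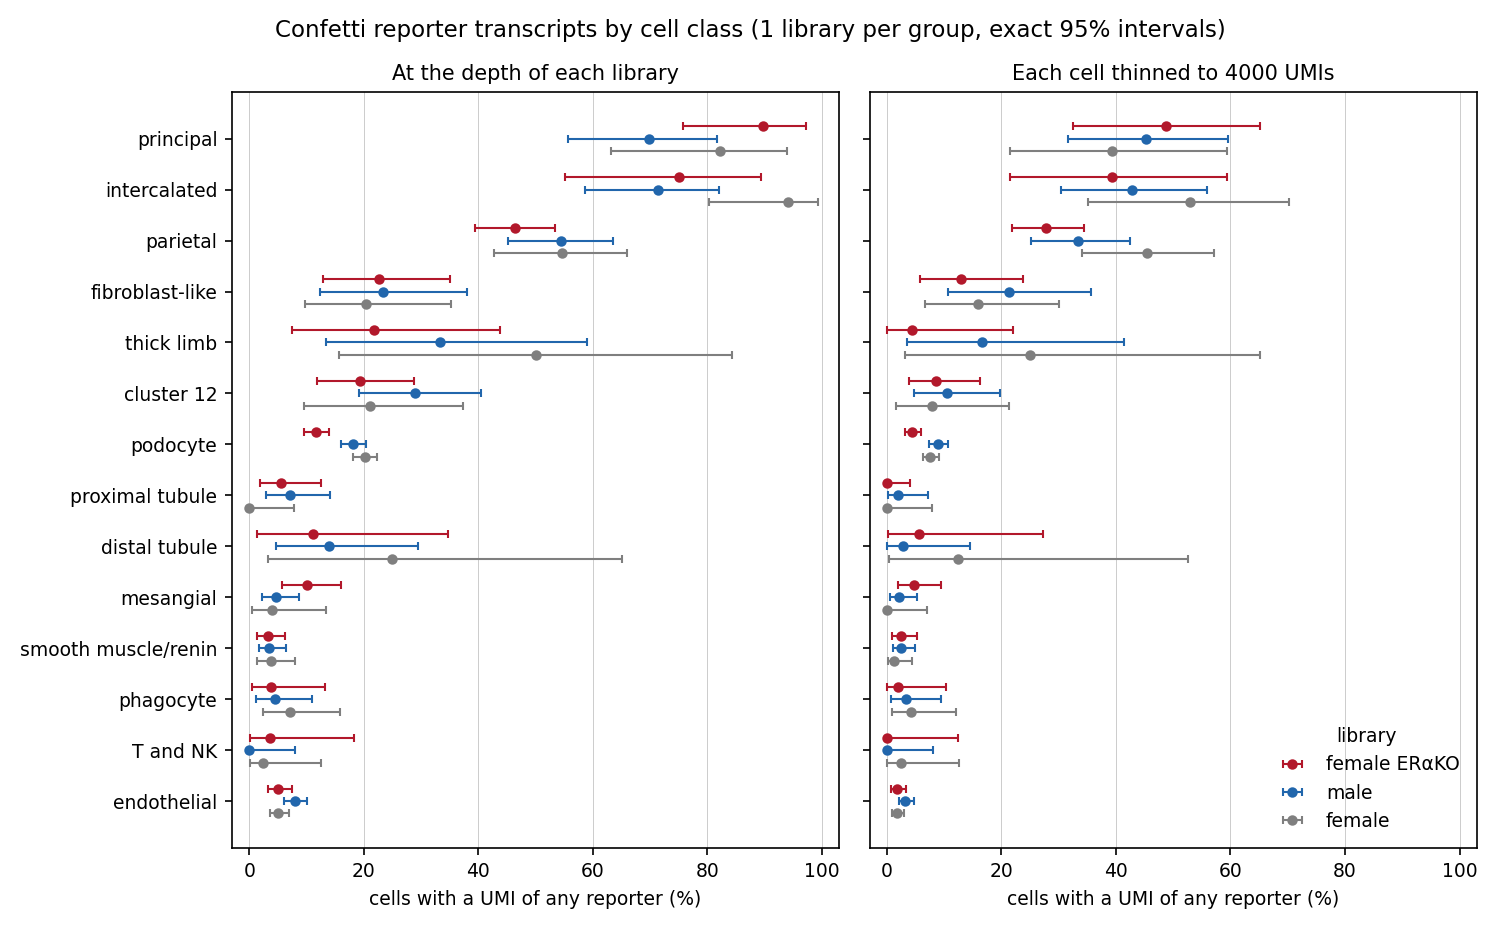
Share of cells with at least 1 UMI of any Confetti reporter (x axis, percent) in each cell class (y axis), for the female ERaKO (red), male (blue) and female (grey) libraries; points are shares, bars exact 95% intervals for counting error. The left panel is at each cell's own depth and the right one after thinning to 4000 UMIs. Principal, intercalated and parietal cells lie at 27.8% or more after thinning, podocytes at 4.38% to 8.92%, and endothelial cells, in the bottom row, at 1.69% to 3.25%.

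Intercalated cells, the acid-base transporting cells of the collecting duct (Atp6v1g3, Slc26a4, Foxi1), were colour-positive in 21 of 28 cells of the female ERaKO library, 45 of 63 of the male library and 32 of 34 of the female library, or 75.0%, 71.4% and 94.1%. After thinning the shares were 39.3%, 42.9% and 52.9%, above endothelial cells in 3 of 3 libraries. These were also among the deepest cells, with medians of 19514.5, 22762 and 34032 UMIs. The 8 principal cell markers stood at 12.2%, 14.7% and 28.5% of their principal cell level in the class. Within it, colour-positive cells had 2364, 2762 and 4630 CPM of principal cell markers, against 651, 301 and 136 CPM in colour-negative cells of the same libraries. The part of principal cell RNA in the intercalated share was not tested.

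The 409 parietal epithelial cells formed 1 cluster led by Msmp, Ms4a2 and Wnt16. Of these, 97 of 209 were colour-positive in the female ERaKO library, 67 of 123 in the male library and 42 of 77 in the female library, or 46.4%, 54.5% and 54.5%. The thinned shares were 27.8%, 33.3% and 45.5%, each more than the endothelial share of its library. Podocyte markers stood at 2.28% to 3.09% of their podocyte level in this cluster.

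Podocytes, the epithelial cells of the glomerular filter, made up 3682 of the 8539 kept cells, and 642 of them were colour-positive. The share was 11.6% of 868 cells in the female ERaKO library (95% interval 9.58% to 14.0%), 18.1% of 1301 in the male library and 20.2% of 1513 in the female library. After thinning it was 4.38%, 8.92% and 7.60%, above the endothelial share in 3 of 3 libraries by 2.69, 5.67 and 5.86 percentage points. The sign-flip test over the 3 libraries gave an exact p of 0.25. The Gas1-led podocyte cluster had 19.0%, 27.5% and 27.1% colour-positive cells, and the largest podocyte cluster, led by Myl7 and Clic3, had 7.46%, 15.3% and 18.4%. After thinning these were 6.54%, 13.1% and 8.24% in the Gas1-led cluster and 3.28%, 8.19% and 7.89% in the largest cluster, so that in the female library most of the gap was gone at equal depth.

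Proximal tubule cells stood at the endothelial level, with a share above it in 1 of 3 libraries. In the female ERaKO library 5 of 90 were colour-positive (5.56%) and in the male library 7 of 99 (7.07%), each with a single reporter UMI. In the female library 0 of 45 cells had a reporter UMI, a count that allows a share of up to 6.67%. Thinned to 4000 UMIs the shares were 0%, 2.02% and 0%, below endothelial cells in 3 of 3 libraries, although the proximal cells were deeper, with medians of 9134, 10690 and 13390 UMIs. The cells came mostly from different clusters, 1 led by Cyp4a14 and Hpd in both female libraries and 1 led by Slc7a13 and Cyp2e1 in the male library. Pax2 itself was low in them, at 5.42, 16.3 and 10.8 CPM in the female ERaKO, male and female libraries. An unnamed cluster of 127 cells, outside this class, had proximal tubule markers at 416%, 101% and 832% of the class level. Of its cells 5 of 86, 0 of 1 and 4 of 40 were colour-positive, and 0%, 0% and 5% after thinning. Its thinned share was above endothelial cells in the female library only, by 3.26 percentage points.

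Thick limb cells numbered 49 and were led by Slc12a1, the sodium transporter of this segment, beside Nos1 and Pappa2, which are known from the macula densa. Of these, 5 of 23 cells of the female ERaKO library, 6 of 18 of the male library and 4 of 8 of the female library were colour-positive. The thinned shares of 4.35%, 16.7% and 25% stood above the endothelial shares in 3 of 3 libraries, but rested on 1, 3 and 2 cells. Parietal markers stood at 12.6%, 3.89% and 4.27% of their parietal level in the thick limb cells. Distal tubule cells (Slc12a3, Pvalb) had 2 of 18, 5 of 36 and 2 of 8 colour-positive cells. Their thinned shares were 5.56%, 2.78% and 12.5%, above endothelial cells in 2 of 3 libraries and below them in the male library. The 10 podocyte markers stood at 26.6%, 33.6% and 68.5% of podocyte level in the distal tubule cells. The part of podocyte RNA in their shares was not tested.

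Mesangial cells, smooth muscle and renin cells, phagocytes and T and NK cells lay within 3.25 percentage points of the endothelial share after thinning. The thinned share was 4.70%, 2.09% and 0% in mesangial cells of the female ERaKO, male and female libraries. Smooth muscle and renin cells had 2.43%, 2.45% and 1.26%, and mononuclear phagocytes 1.92%, 3.33% and 4.29%. The phagocytes were above endothelial cells in 3 of 3 libraries, by 0.24, 0.087 and 2.54 percentage points, on 1, 3 and 3 cells. Among T and NK cells 0, 0 and 1 cell were colour-positive after thinning. Urothelial cells, which line the urinary tract, had 1 of 5, 7 of 23 and 0 of 2 colour-positive cells before thinning, too few to place them.

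A fibroblast-like cluster of 153 cells (Dcn, Igfbp6, Actc1, Cst12) was an exception among these types. Its colour-positive share was 22.6%, 23.4% and 20.5%, and after thinning 12.9%, 21.3% and 15.9%, above endothelial cells in 3 of 3 libraries at a lower median depth than the endothelial cells of the same library. Pax2 stood at 31.1, 57.1 and 28.8 CPM in the cluster, and the 8 parietal markers, which include Pax8, at 36.3%, 57.3% and 44.8% of their parietal level. The podocyte markers stood at 20.1%, 14.2% and 22.2% of podocyte level. The part of parietal or podocyte RNA in this share was not tested. An unnamed cluster of 207 cells, which combines 4 raised parietal markers with Slc5a2 and Slc5a12 of the proximal tubule, had thinned shares of 8.60%, 10.5% and 7.89%, with parietal markers at 53.0%, 31.2% and 41.1% of their parietal level. Their part in this share was not tested. The parietal list is not specific to parietal cells, as it stood at 20.8%, 19.3% and 23.8% of parietal level in mesangial cells.

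Summed over the cells of a class, the reporters ranked the classes in about the same way, and this level does not depend on a cutoff per cell. Pooled reporters reached 271, 196 and 231 CPM in principal cells of the female ERaKO, male and female libraries. Intercalated cells had 180, 235 and 293 CPM, and parietal cells 128, 245 and 237 CPM. Principal, intercalated and parietal cells changed places between the libraries, so no order among them holds. Podocytes had 16.2, 24.4 and 24.2 CPM, which is 12.6%, 9.97% and 10.2% of the parietal level. Endothelial cells had 6.06, 10.97 and 7.19 CPM, and proximal tubule cells 5.42, 5.44 and 0 CPM.

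Podocyte and parietal markers in endothelial cells were set beside the reporters. Podocyte markers in endothelial cells stood at 8.85%, 9.44% and 10.1% of podocyte level in the female ERaKO, male and female libraries. Pooled reporters in the same cells stood at 37.5%, 45.0% and 29.8% of podocyte level. Set against parietal cells, endothelial cells had 4.72%, 4.49% and 3.04% of the reporter level and 4.29%, 3.60% and 4.05% of the level of the 8 parietal markers. In podocytes the reporters stood at a higher share of parietal level (12.6%, 9.97% and 10.2%, above) than the parietal markers did, which were at 3.19%, 3.05% and 3.11%.

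**Figure D2:**
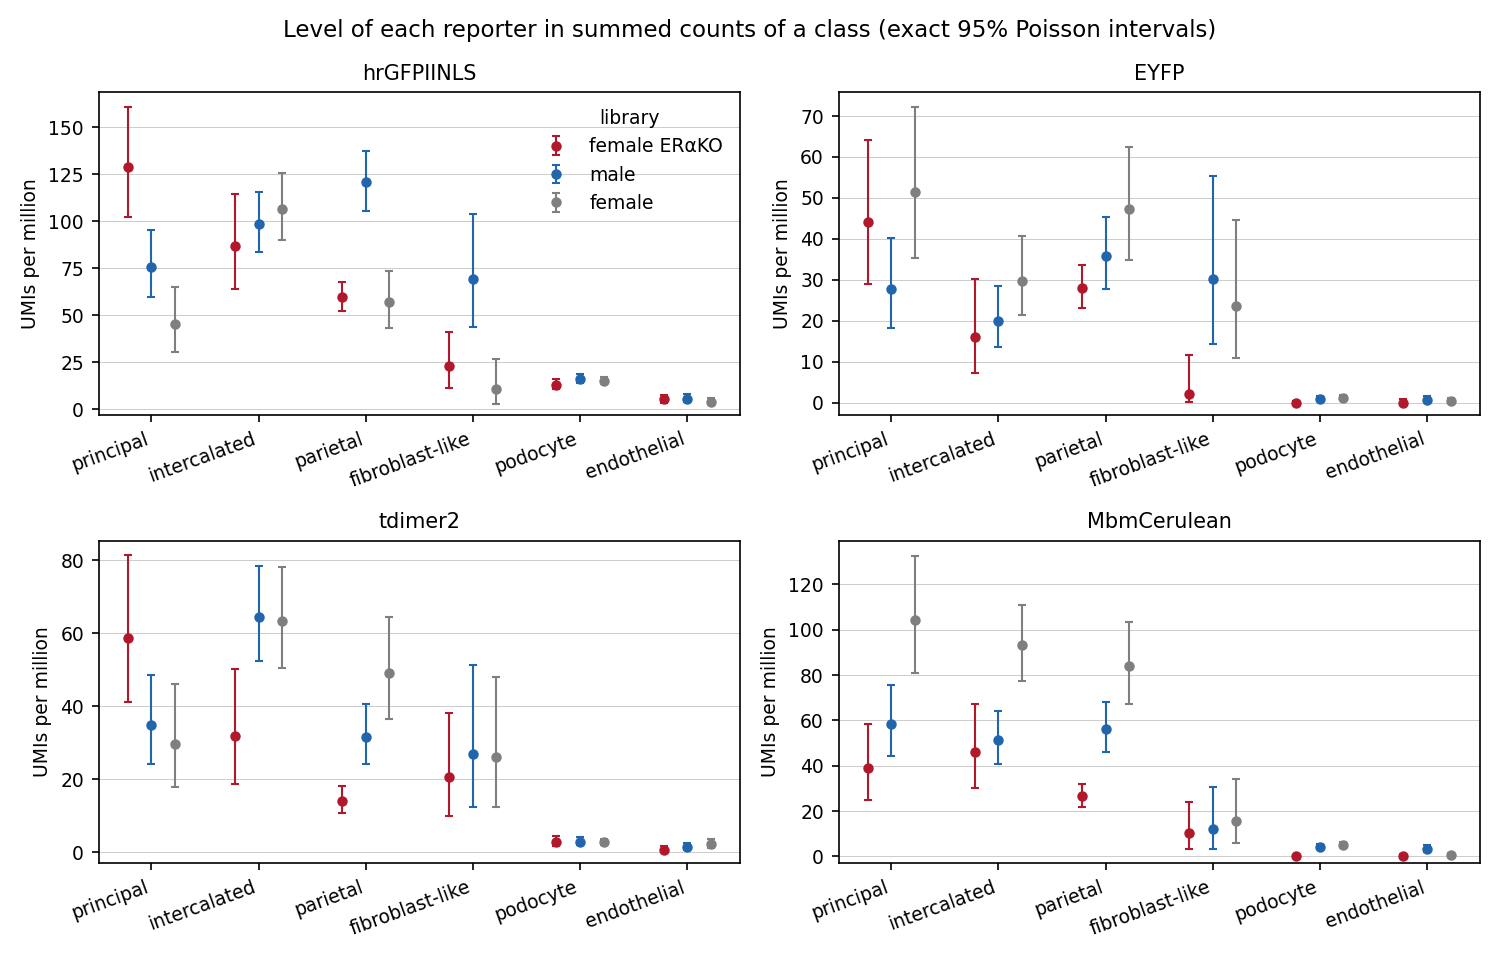
Level of each reporter (y axis, CPM of the class, linear axes that differ) in 6 classes (x axis) of the female ERaKO (red), male (blue) and female (grey) libraries; bars are exact 95% Poisson intervals. Principal, intercalated and parietal cells carry all 4 reporters, while podocytes and endothelial cells lie near the bottom of every panel, with hrGFPIINLS as their main reporter at 13.1 to 16.2 CPM in podocytes and 4.03 to 5.64 CPM in endothelial cells.

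Single cells of the collecting duct and capsule reached high reporter counts, and podocytes did not. No podocyte of any library had more than 4 reporter UMIs, over 3682 cells. Of colour-positive podocytes, 79.2%, 81.4% and 70.2% had exactly 1 UMI in the female ERaKO, male and female libraries. Parietal cells reached 44, 73 and 24 reporter UMIs in a single cell, and 37.1%, 38.8% and 45.2% of their colour-positive cells had 5 or more. Among colour-positive intercalated cells 33.3%, 62.2% and 78.1% had 5 or more, and among principal cells 31.4%, 43.2% and 47.8%.

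At equal depth the variance over the mean was higher in parietal cells than in podocytes in 3 of 3 libraries, and in principal cells not in the female library. After thinning to 4000 UMIs, the variance of reporter UMIs over podocytes divided by their mean was 1.43, 1.08 and 1.13 in the female ERaKO, male and female libraries, where counts scattered at random over like cells would give about 1. Endothelial cells gave 1.21, 1.04 and 1.51. Parietal cells gave 3.01, 3.83 and 3.79, principal cells 2.94, 2.14 and 1.11, and intercalated cells 1.94, 1.77 and 1.44. The mean after thinning was 0.0530, 0.0976 and 0.0853 UMIs in podocytes and 0.574, 0.984 and 1.30 in parietal cells. For label that is uneven between cells the variance over the mean rises with the mean. It therefore cannot tell a higher level from a stronger concentration in single cells. Before thinning, cells with 5 or more UMIs held 76.0%, 80.8% and 78.5% of all reporter UMIs of parietal cells and 0% of those of podocytes.

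**Figure D3:**
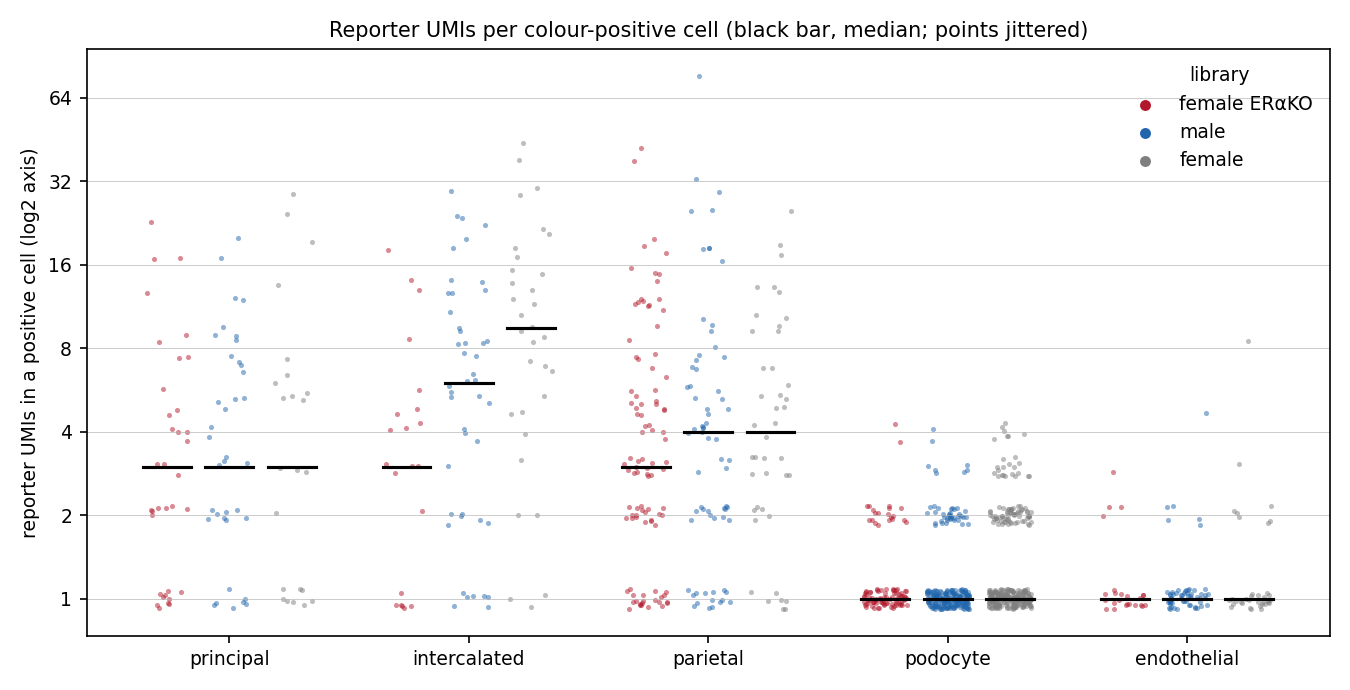
Reporter UMIs in each colour-positive cell (y axis, log2 scale) of 5 classes (x axis) in the female ERaKO (red), male (blue) and female (grey) libraries; each point is a cell, jittered, and black bars are medians. Podocytes have a median of 1 and end at 4, while parietal cells have medians of 3, 4 and 4 and reach 73.

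Many labelled collecting duct and parietal cells carried more than 1 colour. Of colour-positive parietal cells 44.3%, 40.3% and 40.5% had 2 or more colours in the female ERaKO, male and female libraries, after removal of called doublets. Of principal cells 37.1%, 54.1% and 39.1% did, and of intercalated cells 42.9%, 48.9% and 71.9%. All 4 colours were found together in 1, 6 and 0 parietal cells, 1, 1 and 0 principal cells and 0, 1 and 5 intercalated cells. In podocytes 4.95%, 6.78% and 13.8% of colour-positive cells had 2 or more colours, and in endothelial cells 0%, 4.92% and 11.4%. A cell with 1 reporter UMI cannot show 2 colours. Exactly 1 UMI was found in 79.2%, 81.4% and 70.2% of colour-positive podocytes, against 22.7%, 22.4% and 16.7% of colour-positive parietal cells. The lower multicoloured share of podocytes therefore cannot be told apart from their fewer reporter UMIs per cell.

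A stricter count gave lower shares in parietal, principal and intercalated cells, though multicoloured cells remained in each of these classes. With at least 2 UMIs required of each colour, 22 of 68 colour-positive parietal cells of the female ERaKO library still had more than 1 colour (32.4%), as did 38.8% in the male library and 24.2% in the female library. Among parietal cells with 5 or more reporter UMIs, a single colour made up at least 90% of the UMIs in 9 of 36, 7 of 26 and 7 of 19 cells. Among intercalated cells this was so in 2 of 7, 14 of 28 and 6 of 25 cells. Most of these strongly labelled parietal and intercalated cells therefore held less than 90% of 1 colour, apart from the intercalated cells of the male library, where the counts were equal. EYFP and MbmCerulean, the pair whose reads could be shared, occurred together in 18, 8 and 4 parietal cells, and hrGFPIINLS with MbmCerulean, which share no such likeness, in 15, 13 and 7. Shared reads, undetected doublets and a mouse with 2 reporter copies were not tested.

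The colours of podocytes differed between the libraries. hrGFPIINLS was found in 9.79% of podocytes of the female ERaKO library, 12.6% of the male library and 13.7% of the female library, and tdimer2 in 2.30%, 2.61% and 3.30%. MbmCerulean was found in 1 of 868 podocytes of the female ERaKO library (0.12%), against 43 of 1301 in the male library (3.31%) and 73 of 1513 in the female library (4.82%). EYFP was found in 0 of 868 podocytes of the female ERaKO library, against 11 in the male library and 21 in the female library. Of the 4 reporters, the yellow and cyan ones were thus almost missing from female ERaKO podocytes, while the green and red ones were near their level in the female library. This was not particular to podocytes. In that library EYFP and MbmCerulean had 0 and 1 of 29 reporter UMIs in endothelial cells and 0 and 0 of 16 in mesangial cells. Smooth muscle and renin cells had 0 and 4 of 11.

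In CPM, MbmCerulean stood at 0.13 in podocytes of the female ERaKO library, 4.29 in the male library and 5.08 in the female library. The female ERaKO level was 39.6-fold lower than the female level, with a counting interval of 6.93-fold to 1582-fold, from 1 UMI against 90. On the log2(CPM + 1) scale the ratio was -2.43. EYFP was at least 3.08-fold lower in the female ERaKO library than in the female library, with the 0 count set at a floor of 3 counts for the summed podocytes. The exact interval, which also covers the counting error of the 21 UMIs in the female library, starts at 2.29-fold. For hrGFPIINLS the log2 ratio was -0.19 (interval without the pseudocount -0.54 to 0.14) and for tdimer2 0.03 (interval -0.74 to 0.77), both intervals including 0. So 2 of 4 reporters were at least 1.5-fold lower, where 3.85% of 11706 genes with at least 20 summed counts were that much lower in the same comparison. This call rests on the pseudocount of 1 CPM: with 10 CPM the log2 ratios were -0.57 for MbmCerulean and -0.16 for EYFP, neither of them 1.5-fold. Both reporters also reached the 20 summed counts through the female library alone, EYFP with 21 UMIs and MbmCerulean with 90. The count of 2 of 4 is therefore a description only. Between the male and the female library no reporter was 1.5-fold apart in podocytes, where 3.69% of genes were.

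In parietal and collecting duct cells of the female ERaKO library MbmCerulean was present. It was found in 34 of 209 parietal cells of that library (16.3%), against 30 of 123 in the male library (24.4%) and 22 of 77 in the female library (28.6%). Principal cells had it in 9 of 39, 20 of 53 and 11 of 28 cells of the female ERaKO, male and female libraries. Thick limb cells had 0 MbmCerulean UMIs in the female ERaKO library, against 9 in the male library and 5 in the female library, and distal tubule cells had 0, 2 and 2. Endothelial cells, with few reporter UMIs in any library, had MbmCerulean in 1 of 474 cells of the female ERaKO library, 20 of 770 of the male library and 4 of 688 of the female library.

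**Figure D4:**
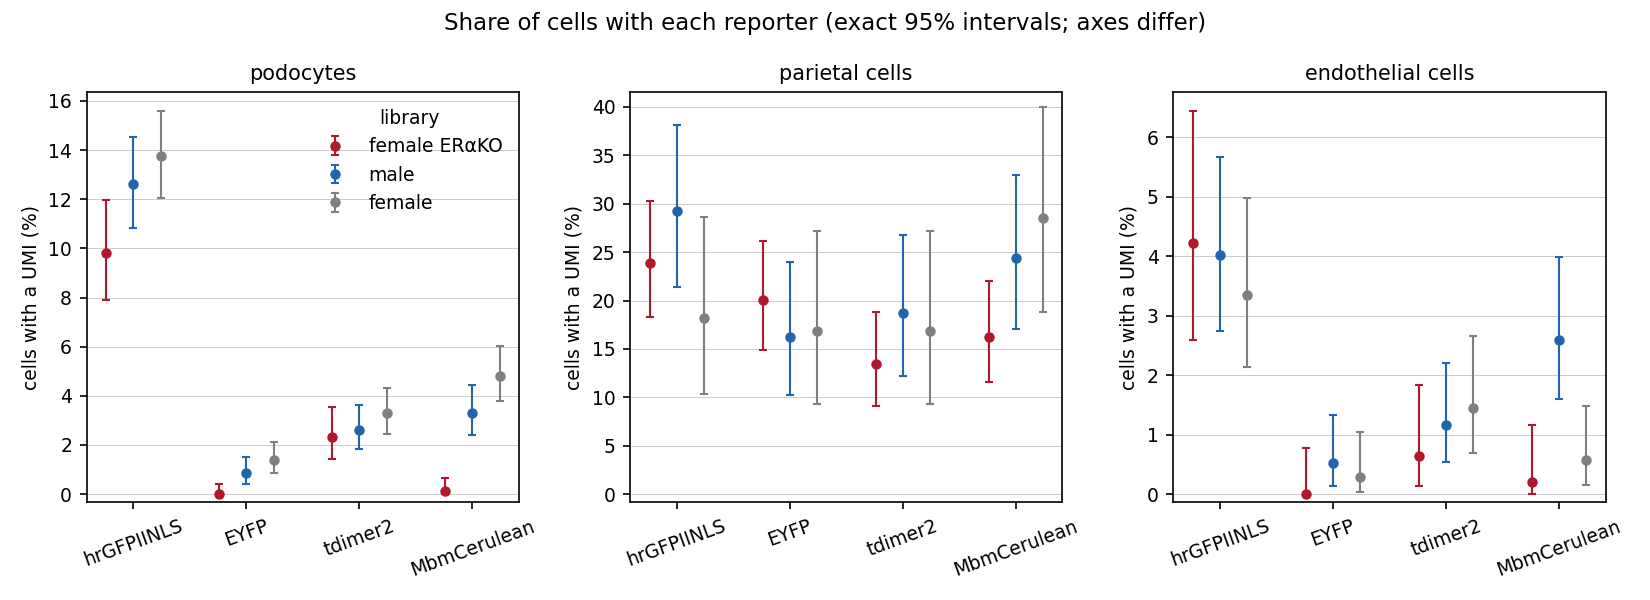
Share of podocytes, parietal cells and endothelial cells (panels, y axes in percent that differ) with at least 1 UMI of each reporter (x axis) in the female ERaKO (red), male (blue) and female (grey) libraries; bars are exact 95% intervals. In podocytes MbmCerulean lies at 0.12% in the female ERaKO library, 3.31% in the male library and 4.82% in the female library, while in parietal cells it lies at 16.3% to 28.6%.

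In parietal cells the level of the reporters also differed in the female ERaKO library. tdimer2 stood at 14.0 CPM in the female ERaKO library, 31.6 CPM in the male library and 49.1 CPM in the female library. MbmCerulean stood at 26.6, 56.4 and 83.8 CPM, and EYFP at 28.1, 35.8 and 47.2 CPM. For female ERaKO over female cells the log2 ratios were -1.74, -1.62 and -0.73, so 3 of 4 reporters were at least 1.5-fold lower, where 6.74% of 11118 genes were. The share of cells did not follow for EYFP, found in 42 of 209 female ERaKO and 13 of 77 female parietal cells. tdimer2 was found in 28 and 13 of these cells. In the female library the top cell for tdimer2 held 25.5% of its UMIs, and that for EYFP 24.5%. hrGFPIINLS stood at 59.5, 121 and 56.9 CPM, a log2 ratio of 0.07 for female ERaKO over female cells.

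The parietal differences depended on which cells formed the class. With called doublets kept, the class widened to 314, 183 and 114 cells, and the pooled log2 ratio of female ERaKO over female cells was -0.31 in place of -0.88. In that setting tdimer2 was at -0.96, MbmCerulean at -1.14 and hrGFPIINLS at 0.70. For male over female cells hrGFPIINLS was higher by 1.07 on the log2 scale (interval 0.67 to 1.52), where 11.2% of genes were at least 1.5-fold higher, and tdimer2 was at -0.62, where 5.34% were at least 1.5-fold lower. The top cell held 22.7% of the hrGFPIINLS UMIs of male parietal cells, so an interval that takes each UMI as independent is too narrow.

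In endothelial cells MbmCerulean was higher in the male library, at 3.29 CPM against 0.58 CPM in the female library. The counts behind these levels were 21 and 4 UMIs, and the log2 ratio was 1.45. It was the 1 reporter of 4 that was 1.5-fold higher, where 2.88% of 11819 genes were. hrGFPIINLS, at 5.22, 5.64 and 4.03 CPM in the endothelial cells of the female ERaKO, male and female libraries, had intervals that included 0 in both comparisons with the female library.

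Over classes, the reporters had a higher correlation with Pax2, whose promoter drives the transactivator, than with the transcript of the locus they sit in. Pax2 (chromosome 19, positions 44756045 to 44837871, plus strand, GRCm38) stood at 147, 172 and 122 CPM in principal cells of the female ERaKO, male and female libraries, at 119, 145 and 100 CPM in parietal cells and at 76.0, 110 and 158 CPM in intercalated cells. In podocytes it stood at 0.26, 0.59 and 0.34 CPM, and in endothelial cells at 0, 1.25 and 0.29 CPM. Over 36 units of class and library with at least 30 cells, the Pearson r between Pax2 and pooled reporters, on log2(CPM + 1), was 0.776, rank 53 of 13632 genes. Units of a library share their depth and free RNA, so these r are descriptions.

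By this measure Dsp, a desmosome protein, was most like the reporters (r = 0.905). Arhgap8, the kinase Pak3, the adhesion molecule L1cam, the receptor Gfra4, the mitochondrial malic enzyme Me3, Efemp1 (a fibulin), Klhl14 and Naaladl2 came next, with r from 0.884 to 0.852. For the single reporters the leading genes were Dsp and Arhgap8 for hrGFPIINLS, Gpr39, Pak3 and Sgcd for EYFP, Dsp, Pak3 and Sgcd for tdimer2, and Dsp, Arhgap8 and Me3 for MbmCerulean. Pairs of reporters had r from 0.832 to 0.897 with each other. Pax8, a related factor of the nephron, had an r of 0.643.

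Gt(ROSA)26Sor, the transcript of the host locus (chromosome 6, positions 113067428 to 113077333, minus strand, GRCm38), had an r of 0.312. Its order of classes was another one. Podocytes had 53.8, 87.9 and 96.7 CPM in the female ERaKO, male and female libraries, parietal cells 25.7, 30.6 and 37.6 CPM, principal cells 6.53, 5.12 and 3.12 CPM and endothelial cells 12.7, 15.5 and 19.3 CPM. Setd5 (chromosome 6, positions 113077365 to 113153435, plus strand) starts beside it, and Thumpd3 (chromosome 6, positions 113046225 to 113068273, plus strand) overlaps its end on the other strand. The sources used here do not say whether reads were counted by strand, so reads in that overlap cannot be placed with certainty.

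Within podocytes, however, reporter UMIs went with transcripts of this locus. Colour-positive podocytes had 83.9, 119 and 140 CPM of Gt(ROSA)26Sor in the female ERaKO, male and female libraries, and colour-negative podocytes 48.0, 79.9 and 80.7 CPM. The ratios were 1.75 (95% interval 1.39 to 2.19), 1.49 (1.30 to 1.70) and 1.74 (1.57 to 1.91), higher in 3 of 3 libraries. Setd5 had ratios of 1.37, 1.45 and 1.49, and Thumpd3 ratios of 1.08, 0.761 and 0.781.

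Ranked by the lowest of the 3 ratios on the log2(CPM + 1) scale, Gt(ROSA)26Sor was gene 2 and Setd5 gene 6 of 10098 genes with at least 20 counts in each library. The first was Ttc26, a protein of cilium transport, at 1.67-fold or more, and it was the 1 gene at least 1.5-fold higher in 3 of 3 libraries (0.0099% of genes), named after its values were seen. In the single libraries 4.07%, 1.7% and 1.3% of genes were that much higher. Colour-positive podocytes were deeper than colour-negative ones, with medians of 8526, 8755 and 12554 UMIs against 7170, 7590 and 8817.5 UMIs. Among podocytes of 7000 to 11000 UMIs alone, the Gt(ROSA)26Sor ratios were 2.44, 1.56 and 1.90, and those of Setd5 were 1.29, 1.30 and 1.27.

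No such difference was seen in parietal cells. Their Gt(ROSA)26Sor level was 23.7, 28.7 and 36.3 CPM in colour-positive cells of the female ERaKO, male and female libraries, against 29.0, 33.8 and 39.5 CPM in colour-negative cells, and the interval of each ratio included 1. Depth differed, with medians of 22555, 12226 and 8998.5 UMIs against 9706.5, 8837.5 and 9031 UMIs. Among parietal cells of 7000 to 11000 UMIs the ratios were 0.64, 0.29 and 0.62. These rest on 4, 2 and 5 Gt(ROSA)26Sor UMIs in colour-positive cells, too few to show that a difference is absent. In endothelial cells the levels were 13.0, 16.2 and 23.1 CPM in colour-positive cells and 12.7, 15.4 and 18.9 CPM in colour-negative cells. The endothelial intervals were wide, from 0.32 to 2.53 in the female ERaKO library.

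**Figure D5:**
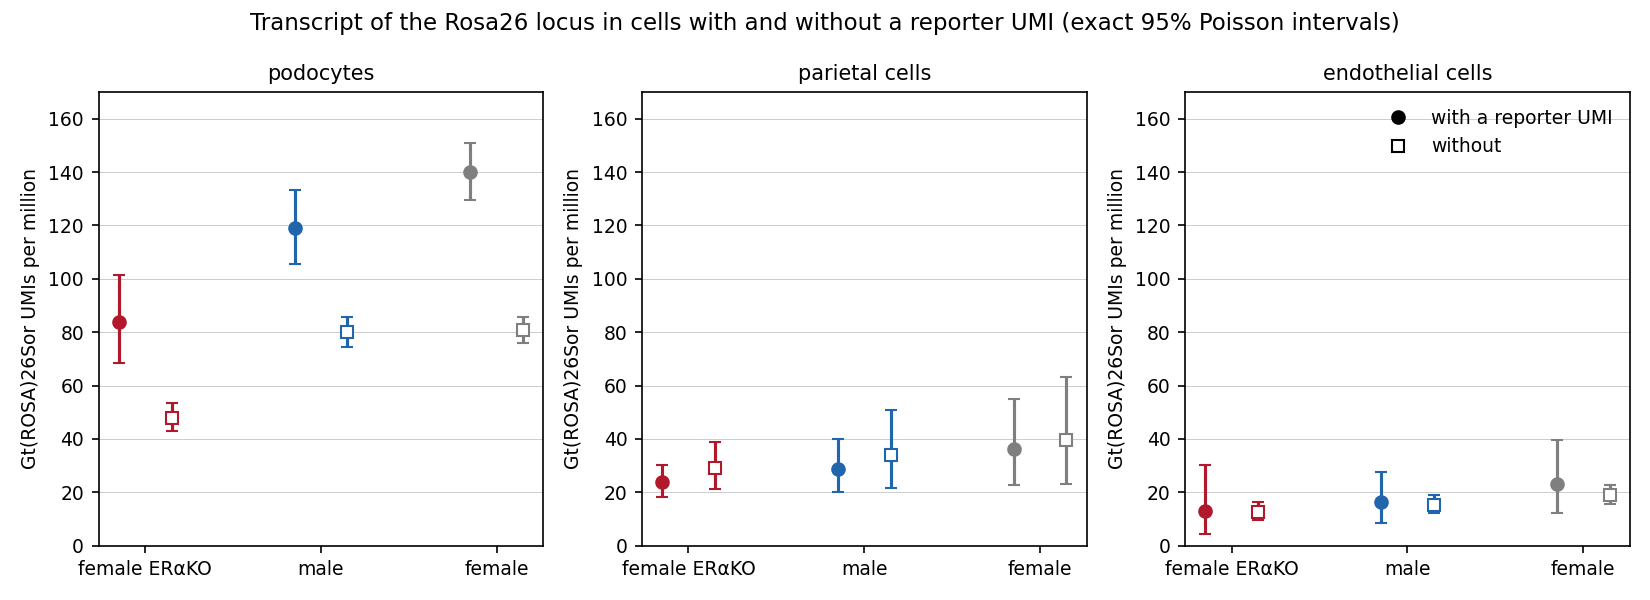
Level of Gt(ROSA)26Sor (y axis, CPM) in cells with (filled circles) and without (open squares) a reporter UMI, for podocytes, parietal cells and endothelial cells (panels) of the female ERaKO (red), male (blue) and female (grey) libraries (x axis); bars are exact 95% Poisson intervals. In podocytes the cells with a reporter UMI lie at 83.9, 119 and 140 CPM and those without at 48.0, 79.9 and 80.7 CPM, while in parietal and endothelial cells the intervals overlap.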

How the data were processed

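The authors deposited raw UMI counts per gene and barcode, without normalisation. The submitters' processing notes name Cell Ranger 6.1.2, STAR 2.7.5a and mm10. How the reporter sequences were added is not given in the sources used here. Libraries held 47522141, 44585342 and 44942380 UMIs (female ERaKO, male and female). Positions are from GENCODE M21 (GRCm38).

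Barcodes with 500 or more genes and no more than 25% mitochondrial UMIs entered Scrublet (scanpy 1.11.5), whose doublets (142, 112 and 53) were removed. Leiden clustering at resolution 1 (leidenalg 0.10.2), blind to the reporters, gave 25 clusters. They were named by 18 marker lists, requiring an average log2 score of 1 or more, a lead of 0.75 over the next list, 3 markers raised 2-fold, and no more markers of another class than of their own among the top 10 genes. These minima, and the exclusion of the erythroid list, were set after the clusters were seen. The other 2 clusters stayed unnamed.

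Shares have Clopper-Pearson intervals, levels Poisson intervals and ratios conditional intervals, all exact at 95%. Those of levels and ratios take each UMI as independent and are too narrow where single cells hold many UMIs. Log2 ratios used a pseudocount of 1 CPM. edgeR 4.0.16 served only for TMM scaling as an alternative. A count of 0 has a limit of 3 counts or cells. The functions were tested on simulated data. Named genes are the reporters, the driver, locus and target genes, markers, and the genes with the highest r with the reporters, of which 1 is not reported here. The members, lists and comparisons were chosen with earlier results of these data known.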

Additional observations from a re-analysis of the deposited data

Results flagged for a closer look

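Reporter UMIs were also found in barcodes that the cell filter or the doublet caller left out. Of barcodes with 25 to 50% mitochondrial UMIs, 19.1%, 22.3% and 19.9% were colour-positive in the female ERaKO, male and female libraries. Of barcodes with over 50% mitochondrial UMIs, 3.22%, 4.12% and 2.72% were. Of called doublets, 25.4%, 19.6% and 26.4% were.

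MbmCerulean differed between the male and the female library in opposite directions in 2 classes. On the log2 scale, male over female cells stood at 1.45 in endothelial cells and at -0.56 in parietal cells, and neither counting interval included 0. These intervals take each UMI as independent. Parietal UMIs were clustered in single cells, so the parietal interval is too narrow. The difference between the classes was not tested.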

How the results depend on the processing

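Of 305 values recomputed under an alternative, 262 counted as the same and 43 did not. Most were judged by the counting interval of the main value, which for log2 ratios was widened to hold that value. The 5 mean differences from endothelial cells were judged by their sign only. With at least 2 UMIs over the reporters required, the colour-positive share (female ERaKO, male and female libraries) was 2.42%, 3.38% and 6.01% in podocytes and 0.844%, 0.779% and 1.16% in endothelial cells, 35.9% and 42.3% in parietal cells (female ERaKO, male), 0% and 0% in proximal tubule cells (female ERaKO, male), 64.1% and 53.6% in principal cells (female ERaKO, female) and 53.6% in intercalated cells (female ERaKO). With at most 10% mitochondrial UMIs it was 75.0%, 53.8% and 60.0% in principal cells and 2.65% and 3.24% in endothelial cells (female ERaKO, female), and no intercalated class was found. At Leiden resolution 2 it was 38.8% in parietal cells (female ERaKO). Thinned to 2000 UMIs, the share was 2.88%, 4.61% and 3.64% in podocytes, 18.2% and 33.8% in parietal cells (female ERaKO, female), 30.8% and 28.3% in principal cells (female ERaKO, male) and 27.0% in intercalated cells (male). With 2 UMIs required of a colour, multicoloured cells were 0%, 0% and 1.69% of colour-positive podocytes, 32.4% and 24.2% of colour-positive parietal cells (female ERaKO, female) and 32.1% of colour-positive principal cells (male). For female ERaKO over female cells, the podocyte MbmCerulean log2 ratio was -0.57 with a pseudocount of 10 CPM, no longer 1.5-fold, and the pooled parietal ratio was -0.54 at 10% mitochondrial UMIs and -0.31 with doublets kept. The depth range of 7000 to 11000 UMIs was chosen after seeing the data. The causes were not tested. No paired analysis was possible because each group is 1 library, so groups could not be compared with a replicate block; the sign-flip tests pair cell classes within a library. Small classes (thick limb, distal tubule) are limited by their number of cells.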
